A study of Mus musculus with 12 samples.

Results

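The brush border hydrolases described here are 10 genes of the intestinal absorptive cell whose enzymes sit in the apical membrane: *Lct*, *Sis*, *Mgam*, *Treh*, *Alpi*, *Anpep*, *Dpp4*, *Enpep*, *Mme* and *Enpp3*. They were found by their symbol among 25341 named transcript clusters of a mouse whole-transcript array, out of 41345 clusters in all, and each of the 10 had exactly 1 cluster. They were measured in epithelial cells released with EDTA from the ileum (S-IECs) and the colon (L-IECs) of mice 11 weeks old. In *Nfat5*IEC-KO mice, Cre driven by the *Villin* promoter removes floxed *Nfat5*, a transcription factor of the osmotic stress response, from the intestinal epithelium. The *Nfat5*fl/fl mice carry the same floxed alleles without Cre, and no mouse was treated. The 12 arrays form 4 groups of 3: S-IEC *Nfat5*IEC-KO, S-IEC *Nfat5*fl/fl, L-IEC *Nfat5*IEC-KO and L-IEC *Nfat5*fl/fl. All values below are log2 values of a cluster, and every difference is *Nfat5*IEC-KO minus *Nfat5*fl/fl, or S-IECs minus L-IECs.

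The brush border is the carpet of microvilli on the luminal face of the enterocyte, the absorptive cell of the villus. Luminal and pancreatic enzymes leave short sugars and peptides, and the hydrolases anchored in the microvillus membrane cut these into monosaccharides, amino acids and small peptides that transporters beside them take up. Enterocytes gain these enzymes as they leave the crypt, where stem cells divide, and climb the villus. Lactase and sucrase-isomaltase are classical markers of the small intestine, and their genes are known targets of the CDX, GATA and HNF1 factors. NFAT5 binds DNA through a core close to that of the other NFAT proteins.

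The stretch before the start of 4 members is printed here for the genotype comparison that follows: *Enpp3*, *Lct* and *Mme* had the largest differences in S-IECs, and *Sis*, whose promoter is well studied, had a smaller one. Each is the 250 bases before a RefSeq start in GRCm38.p6, read 5′ to 3′ on the strand of the gene. *Enpp3* is chr10:24836196-24836445 (minus strand), *Lct* chr1:128328319-128328568 (minus strand), *Mme* chr3:63294961-63295210 (plus strand, the first of 3 starts) and *Sis* chr3:72967864-72968113 (minus strand). Capitals mark matches, on either strand, to 5 short motifs. The core of an HNF1 half-site is GTTAAT and the CDX core is TTTAT. The GATA motif is AGATAA, the part searched of HNF4 sites is CAAAGT, and the core of the NFAT5 site is TGGAAA.
Enpp3: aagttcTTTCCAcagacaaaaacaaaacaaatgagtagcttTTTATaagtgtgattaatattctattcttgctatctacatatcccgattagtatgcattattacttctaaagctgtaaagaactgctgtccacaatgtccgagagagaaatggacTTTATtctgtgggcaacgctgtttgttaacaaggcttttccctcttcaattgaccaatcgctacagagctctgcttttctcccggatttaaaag
Lct: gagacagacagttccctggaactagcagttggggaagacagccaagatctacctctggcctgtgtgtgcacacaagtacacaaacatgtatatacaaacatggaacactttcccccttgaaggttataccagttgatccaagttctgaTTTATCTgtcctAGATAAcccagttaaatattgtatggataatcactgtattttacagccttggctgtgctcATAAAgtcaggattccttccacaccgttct
Mme: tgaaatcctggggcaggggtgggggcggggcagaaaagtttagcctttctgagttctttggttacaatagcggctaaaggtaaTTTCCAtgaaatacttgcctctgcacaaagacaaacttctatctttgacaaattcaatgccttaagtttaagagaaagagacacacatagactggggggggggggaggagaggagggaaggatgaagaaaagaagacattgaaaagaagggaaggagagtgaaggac
Sis: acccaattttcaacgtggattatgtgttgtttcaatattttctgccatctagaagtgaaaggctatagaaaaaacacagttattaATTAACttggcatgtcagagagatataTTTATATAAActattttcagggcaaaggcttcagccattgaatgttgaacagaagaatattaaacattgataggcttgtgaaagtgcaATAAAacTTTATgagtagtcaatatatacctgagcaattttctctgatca

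In the *Lct* stretch a CDX core at −102 to −98 overlapped a GATA match at −101 to −96, a second GATA match stood at −90 to −85 and a second CDX core at −30 to −26. The *Sis* stretch held 4 CDX cores, of which those at −138 to −134 and −133 to −129 abut, and the single HNF1 half-site of the set, at −165 to −160. *Enpp3* held 2 CDX cores and an NFAT5 core at −244 to −239, and the first *Mme* start had an NFAT5 core at −167 to −162 and no other match. Over the 10 members, counting every RefSeq start, the CDX core was found in 7, GATA in 3, the HNF4 part in 3, the NFAT5 core in 2 and the HNF1 half-site in 1. The share of all 32851 mouse promoter windows of this length with a match was 37.3% for the CDX core, 9.99% for GATA, 12.6% for the HNF4 part, 18.6% for the NFAT5 core and 6.43% for the HNF1 half-site. A member counts once over all its starts, 3 for *Mme*, while the share is per window. For the NFAT5 core, 2 of 10 is near the share of all windows. No link of a motif to a genotype difference was tested. The *Anpep* window held no match, which says only that these letters are absent there.

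**Figure D1:**
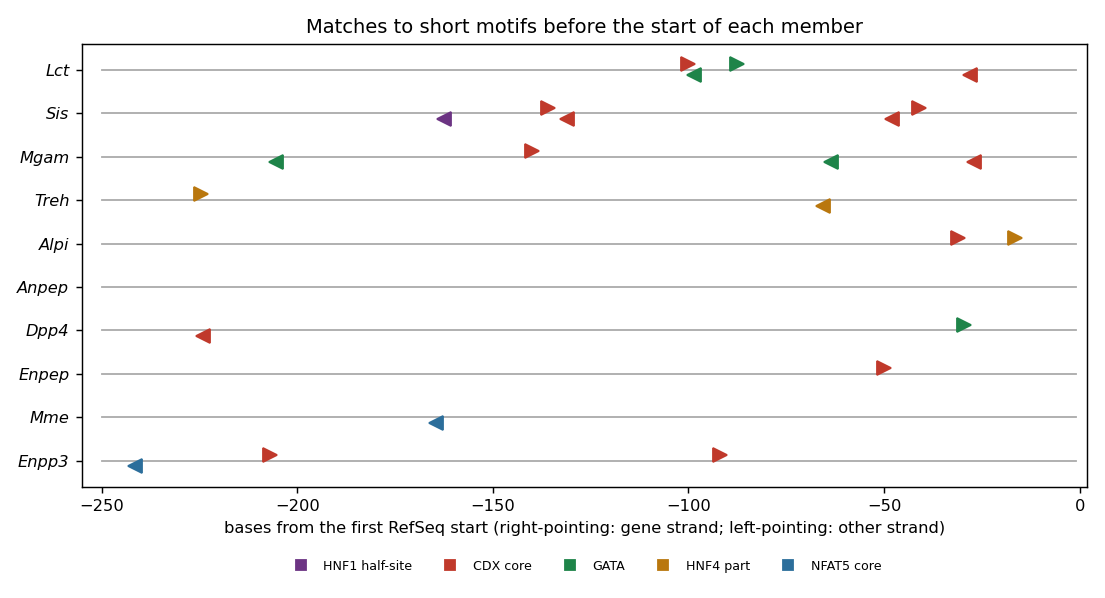
Positions of matches to 5 short motifs in the 250 bases before the first RefSeq start of each member; the x axis gives bases from the start, colour the motif and arrow direction the strand. CDX cores lie before 7 of 10 members, against 37.3% of all promoter windows. The NFAT5 core lies before 2 of 10, *Mme* and *Enpp3*, which is near the 18.6% of all windows.

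The arrays were alike in scale, with medians of 4.48 to 4.57 and Pearson r of 0.988 to 0.992 between arrays of 1 group. The labels number 3 mice per group and use the same genotype and mouse number for ileum and colon, so both tissues may come from the same 6 mice. The spread is that between these arrays. The targeted gene, *Nfat5*, read 8.08, 7.84 and 8.01 in S-IEC arrays labelled *Nfat5*IEC-KO, against 8.03, 8.03 and 8.17 in *Nfat5*fl/fl, and these groups overlapped (difference −0.10, standard error 0.12, limma adjusted p = 0.763). In L-IECs it read 6.92, 6.90 and 6.997 in *Nfat5*IEC-KO, against 7.49, 7.45 and 7.54 in *Nfat5*fl/fl (difference −0.55, standard error 0.09, limma adjusted p = 0.544). In these arrays the S-IEC genotypes therefore rest on the labels. Apart from the arrays, the paper reports reduced *Nfat5* mRNA in epithelial cells of *Nfat5*IEC-KO mice and less NFAT5 protein in their intestinal epithelium. The ileal markers *Fabp6* and *Slc10a2*, a bile acid binding protein and the ileal bile acid transporter, were higher in all 6 S-IEC arrays than in L-IECs. *Fabp6* read 12.01 to 12.53 in S-IECs, against 4.49 to 5.22 in L-IECs, while *Slc10a2* separated the tissues far less, with 9.85 to 10.69 in S-IECs, against 8.57 to 9.07 in L-IECs. *Car1*, a colonic carbonic anhydrase, read 12.56 to 12.85 in L-IECs. In S-IECs it read 4.97, 3.65 and 4.84 in *Nfat5*IEC-KO and 4.32, 9.75 and 8.59 in *Nfat5*fl/fl, so *Nfat5*fl/fl arrays 2 and 3 stand apart from the other 4 S-IEC arrays in this gene.

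The first comparison asks how far the hydrolases mark the ileum. All 10 were higher in S-IECs than in L-IECs in both genotypes, with no overlap of the arrays, and all passed the test. Arrays were apart in this direction for 18.8% of all clusters in *Nfat5*IEC-KO and 15.2% in *Nfat5*fl/fl. In *Nfat5*IEC-KO arrays 10 of 10 members were called higher at a limma adjusted p under 0.05, against 10% of all clusters. In *Nfat5*fl/fl arrays it was again 10 of 10, against 7.2% of all clusters. The median difference of the members was 5.12 in *Nfat5*IEC-KO and 4.595 in *Nfat5*fl/fl, beside medians of 0.021 and −0.00031 over all clusters.

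Among the sugar enzymes, *Lct* (lactase, chr1:128284756-128328318), which splits milk sugar, was 82.9-fold higher in S-IECs in *Nfat5*IEC-KO and 42.1-fold in *Nfat5*fl/fl. *Sis* (sucrase-isomaltase, chr3:72888557-72967863), which digests sucrose and starch fragments, was 43.9-fold higher in *Nfat5*IEC-KO and 44.6-fold in *Nfat5*fl/fl. *Mgam* (maltase-glucoamylase, chr6:40628831-40769123) had the smallest tissue difference of the set, 2.22 ± 0.10 (SE) in *Nfat5*IEC-KO and 2.14 ± 0.10 in *Nfat5*fl/fl on the log2 scale, since its cluster still read 9.72 to 9.90 in the colon. *Treh* (trehalase, chr9:44673233-44686305), which splits trehalose, was 33.8-fold higher in *Nfat5*IEC-KO and 13.9-fold in *Nfat5*fl/fl.

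Of the peptidases, *Anpep* (aminopeptidase N, chr7:79821803-79848210), which removes neutral residues from the amino end, had the widest gap of the 10, with 143-fold in *Nfat5*IEC-KO and 124-fold in *Nfat5*fl/fl. *Enpep* (glutamyl aminopeptidase, chr3:129269177-129332749), which removes acidic residues, was 36.0-fold higher in *Nfat5*IEC-KO and 52.7-fold in *Nfat5*fl/fl. *Mme* (neprilysin, chr3:63295211-63383713), an endopeptidase, was 76.5-fold higher in *Nfat5*IEC-KO and 48.4-fold in *Nfat5*fl/fl. *Dpp4* (dipeptidyl peptidase 4, chr2:62330073-62412315), which releases dipeptides and inactivates incretin hormones, was 11.1-fold higher in *Nfat5*IEC-KO and 9.83-fold in *Nfat5*fl/fl. The phosphatase *Alpi* (intestinal alkaline phosphatase, chr1:87098002-87101606), which also dephosphorylates bacterial lipopolysaccharide, was 20.9-fold higher in *Nfat5*IEC-KO and 12.1-fold in *Nfat5*fl/fl. *Enpp3* (chr10:24773814-24836195), an ectoenzyme that cleaves extracellular nucleotides, was 21.3-fold higher in *Nfat5*IEC-KO and 9.08-fold in *Nfat5*fl/fl. Over the 10 members and both genotypes, adjusted p-values lay between 5.94e-09 and 5.16e-06 (limma). The L-IEC values of *Lct*, *Mme*, *Enpp3* and *Treh* (3.59 to 5.27) were near the array medians. No detection calls were used here, so how far these colonic values stand above background is unknown, and the folds of these 4 genes are only lower bounds where the colonic value is background.

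**Figure D2:**
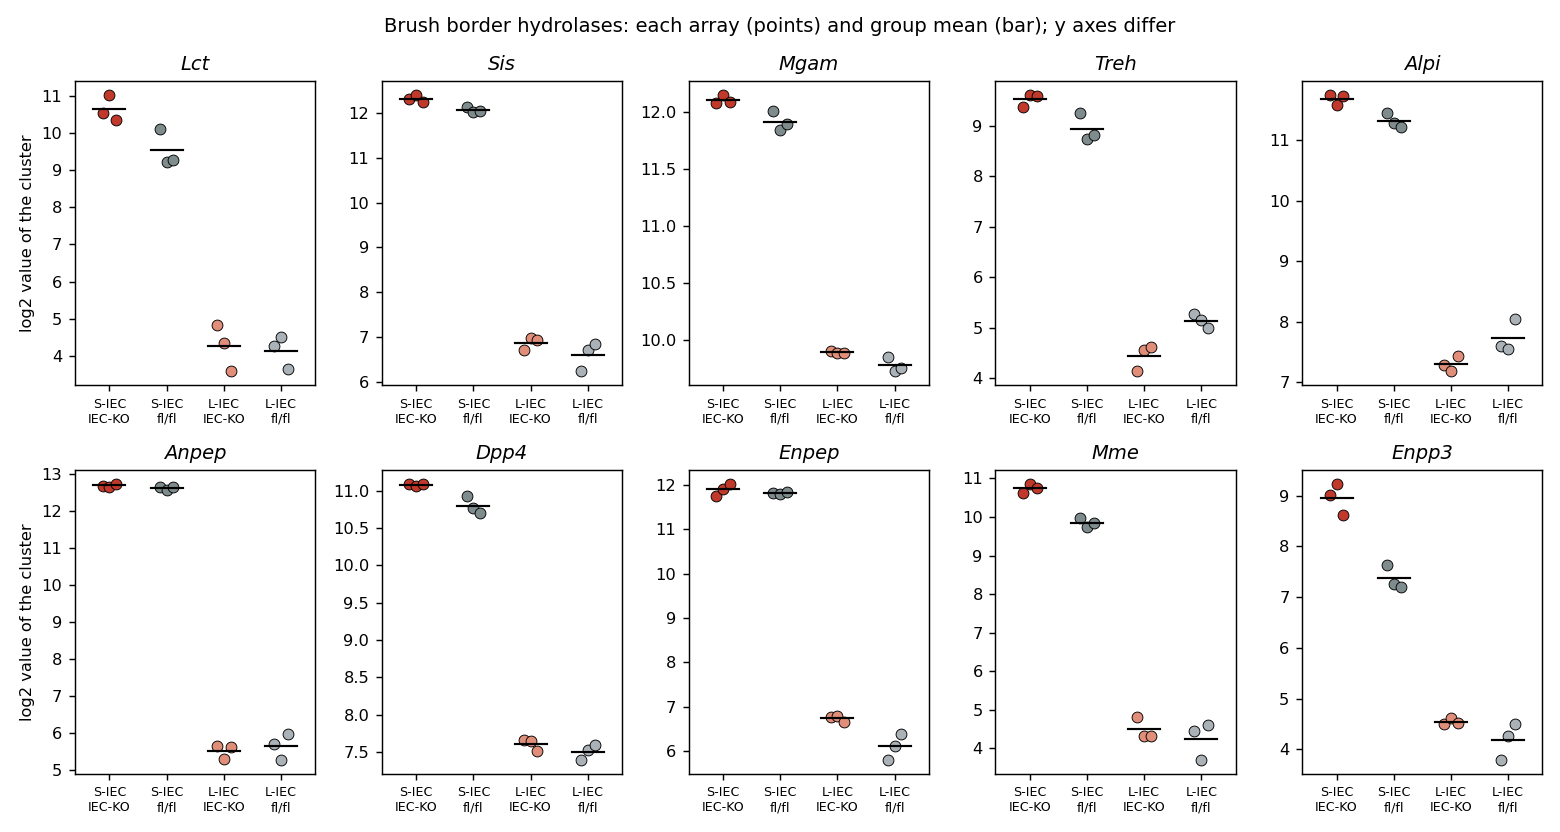
Log2 value of each member's cluster (y axis, its own scale in each panel) in the 3 arrays of each group (points) with the group mean (bar). All 6 S-IEC arrays lie above all 6 L-IEC arrays for every member, and in S-IECs the *Nfat5*IEC-KO arrays lie above the *Nfat5*fl/fl arrays for all but *Enpep*.

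**Figure D3:**
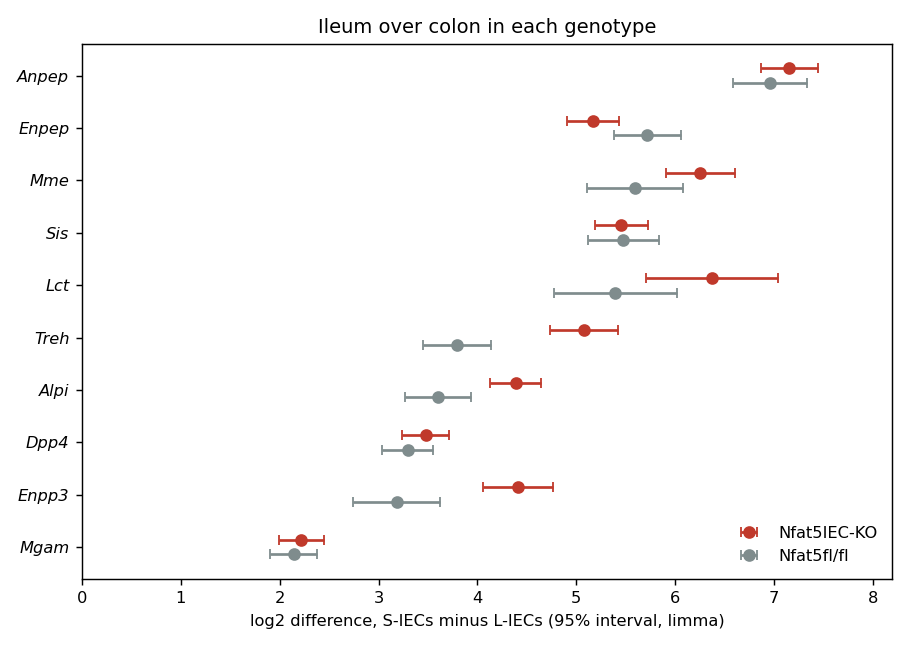
S-IEC minus L-IEC log2 difference of each member (x axis) with its 95% interval from limma, in *Nfat5*IEC-KO and *Nfat5*fl/fl arrays. Every interval lies above 0, and the points run from 2.14 for *Mgam* in *Nfat5*fl/fl to 7.16 for *Anpep* in *Nfat5*IEC-KO.

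The second comparison asks whether the hydrolases differ with genotype in the ileum. All 10 means were higher in arrays labelled *Nfat5*IEC-KO than in *Nfat5*fl/fl, as were those of 52.9% of all clusters, and for 9 of the 10 every *Nfat5*IEC-KO array lay above every *Nfat5*fl/fl array, against 9.8% of all clusters. None passed limma's adjusted p of 0.05 (0 of 10, against 0.00789% of all clusters called higher). At an unadjusted p under 0.05, 7 of 10 were higher, against 5.81% of all clusters (8.23% were lower), and 4 of these differed by at least 1.5-fold, against 0.702%. The members' median difference was 0.32, beside 0.014 over all clusters. The members were chosen with earlier results of these data known. In S-IECs every member read above the array medians, while the shares are over all clusters, dim ones included. The differences were unequal: *Enpp3*, *Lct*, *Mme* and *Treh* were 1.5 to 3-fold higher, while *Anpep* and *Enpep* differed by under 0.1 on the log2 scale. In a mixed preparation, more cells of a type and more RNA per cell of that type cannot be told apart. The count at an adjusted p differed between fits: 2 members were called (*Enpp3* and *Mme*) with all 12 arrays in one fit, where 0.501% of all clusters were called higher, 4 (with *Treh* and *Alpi*) with the trend and robust options of eBayes (0.655%), 2 with dim clusters left out (0.442%) and 2 without *Nfat5*IEC-KO array 2 (0.0908%). With 3 arrays against 3, an exact two-sided permutation test of a single gene cannot go below 0.1.

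*Enpp3* had the largest difference. It read 9.02, 9.24 and 8.62 in S-IEC *Nfat5*IEC-KO, against 7.64, 7.26 and 7.20 in *Nfat5*fl/fl, so the nearest arrays were 0.98 apart. The difference was 1.59 ± 0.18 (SE, 95% interval 1.18 to 2.00), 3.01-fold, and it ranked 3 from the top of 25341 clusters (limma adjusted p = 0.0899). Its adjusted p was under 0.05 in 5 of the 18 alternative fits. The lowest, 0.00189 (limma), came relative to the absorptive enterocyte markers, a scale added after seeing the data and described further on. The lowest in the other fits was 0.00446, with the trend and robust options of eBayes.

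*Mme* read 10.63, 10.87 and 10.74 in S-IEC *Nfat5*IEC-KO, against 9.96, 9.75 and 9.85 in *Nfat5*fl/fl. The arrays of each genotype were tight and the groups well apart. The difference was 0.89 ± 0.12 (SE, 95% interval 0.63 to 1.16), 1.86-fold, rank 28 from the top (limma adjusted p = 0.112). It also passed 0.05 in 5 of the 18 alternative fits, among them the fit relative to the absorptive enterocyte markers.

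*Lct* read 10.52, 11.02 and 10.35 in S-IEC *Nfat5*IEC-KO, against 10.11, 9.23 and 9.26 in *Nfat5*fl/fl. Here the *Nfat5*fl/fl arrays were split, array 1 lying near the *Nfat5*IEC-KO arrays. The difference was 1.10 ± 0.26 (SE, 95% interval 0.52 to 1.68), 2.14-fold, rank 15 (limma adjusted p = 0.137), and without *Nfat5*fl/fl array 1 it was 1.39 (adjusted p = 0.136).

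*Treh* showed the same split, with 9.37, 9.61 and 9.59 in S-IEC *Nfat5*IEC-KO, against 9.25, 8.74 and 8.81 in *Nfat5*fl/fl. The difference was 0.59 ± 0.15 (SE, 95% interval 0.24 to 0.94), 1.502-fold (limma adjusted p = 0.157), and the nearest arrays of the genotypes were 0.12 apart. For 8 of the 10 members, all but *Anpep* and *Enpep*, *Nfat5*fl/fl array 1 was the highest of its group in S-IECs. Arrays 2 and 3, lower in these 8, are those with high *Car1*, and the part of this in the differences was not tested.

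*Alpi* read 11.75, 11.58 and 11.73 in S-IEC *Nfat5*IEC-KO, against 11.46, 11.29 and 11.23 in *Nfat5*fl/fl, a difference of 0.36 ± 0.12 (SE, limma adjusted p = 0.221). Its close relative *Akp3*, another alkaline phosphatase, read 4.98 and 4.76 on average in these groups (difference 0.23, adjusted p = 0.513), and whether probes of one detect the other was not tested. *Dpp4* read 11.10, 11.06 and 11.08 in *Nfat5*IEC-KO, against 10.93, 10.77 and 10.70 in *Nfat5*fl/fl, a difference of 0.28 ± 0.11 (SE, adjusted p = 0.305). *Sis* read 12.31, 12.41 and 12.25 in *Nfat5*IEC-KO, against 12.13, 12.03 and 12.05 in *Nfat5*fl/fl, a difference of 0.25 ± 0.11 (SE, adjusted p = 0.340). For these 3 the groups did not overlap, and the nearest arrays of the genotypes were 0.11 to 0.13 apart.

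*Mgam* averaged 12.11 ± 0.04 in S-IEC *Nfat5*IEC-KO and 11.92 ± 0.08 in *Nfat5*fl/fl (SD, n = 3 each), with a 95% interval of the difference of −0.05 to 0.43. *Anpep* averaged 12.69 ± 0.04 in *Nfat5*IEC-KO and 12.61 ± 0.05 in *Nfat5*fl/fl (SD, n = 3 each), with an interval of −0.16 to 0.31, and its groups were apart by only 0.0017. *Enpep* averaged 11.91 ± 0.14 in *Nfat5*IEC-KO and 11.82 ± 0.01 in *Nfat5*fl/fl (SD, n = 3 each), with an interval of −0.17 to 0.34, and was the 1 member whose groups overlapped. These intervals leave out a 1.5-fold difference. The clusters of *Sis*, *Mgam*, *Anpep* and *Enpep* read 11.76 to 12.73 in S-IECs, while the highest value of any cluster was 13.66 to 13.76 per array, and whether such bright clusters understate a difference was not tested.

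**Figure D4:**
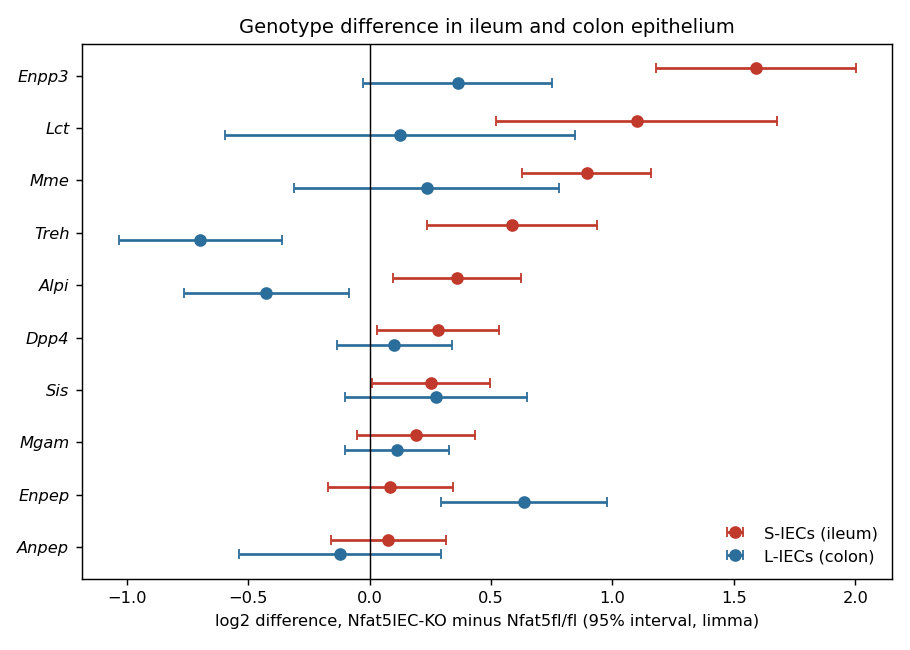
*Nfat5*IEC-KO minus *Nfat5*fl/fl log2 difference of each member (x axis) with its 95% interval from limma, in S-IECs and L-IECs. In S-IECs all 10 points lie above 0, from 0.076 for *Anpep* to 1.59 for *Enpp3*, while in L-IECs *Treh* (−0.70) and *Alpi* (−0.43) lie below 0 and *Enpep* (0.64) above.

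In the colon the same comparison gave no common direction. In L-IECs 7 members had higher and 3 lower means in *Nfat5*IEC-KO, and 50.4% of all clusters were higher. The number called at a limma adjusted p under 0.05 was 0 of 10, against 0% of all clusters. At an unadjusted p under 0.05, 1 member was higher (2.97% of all clusters) and 2 were lower (3.35%), of which 1 higher (0.217%) and 1 lower (0.237%) differed by 1.5-fold or more. Groups did not overlap for 2 members that were higher (5.83% of all clusters) and 2 that were lower (6.24%). The members' median difference was 0.12, beside 0.0014 over all clusters.

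*Treh* read 4.14, 4.56 and 4.63 in L-IEC *Nfat5*IEC-KO, against 5.27, 5.15 and 5.004 in *Nfat5*fl/fl, a difference of −0.70 ± 0.15 (SE), 1.62-fold lower (limma adjusted p = 0.668). *Alpi* read 7.29, 7.18 and 7.43 in *Nfat5*IEC-KO, against 7.59, 7.55 and 8.04 in *Nfat5*fl/fl, a difference of −0.43 ± 0.15 (SE, adjusted p = 0.768). *Enpep* read 6.77, 6.79 and 6.65 in *Nfat5*IEC-KO, against 5.80, 6.12 and 6.39 in *Nfat5*fl/fl, a difference of 0.64 ± 0.15 (SE), 1.55-fold higher (adjusted p = 0.702). In all 3 the genotypes did not overlap, but the *Enpep* spread lay mostly within *Nfat5*fl/fl. *Mgam* was also apart, at 9.90, 9.88 and 9.89 in *Nfat5*IEC-KO, against 9.85, 9.72 and 9.75 in *Nfat5*fl/fl.

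The other 6 overlapped in L-IECs, and their arrays of 1 group often spread by more than the genotypes differed. *Lct* read 4.84, 4.35 and 3.59 in *Nfat5*IEC-KO, against 4.26, 4.499 and 3.65 in *Nfat5*fl/fl. *Mme* read 4.81, 4.33 and 4.33 in *Nfat5*IEC-KO, against 4.46, 3.70 and 4.61 in *Nfat5*fl/fl. Both are near the array medians in either genotype. *Enpp3*, the member with the largest ileal difference, read 4.496, 4.62 and 4.53 in *Nfat5*IEC-KO, against 3.79, 4.26 and 4.51 in *Nfat5*fl/fl, with a difference of 0.36 and a 95% interval of −0.03 to 0.75. *Sis* read 6.70, 6.97 and 6.93 in *Nfat5*IEC-KO, against 6.23, 6.71 and 6.84 in *Nfat5*fl/fl, with 1 low *Nfat5*fl/fl array. *Anpep* read 5.67, 5.30 and 5.63 in *Nfat5*IEC-KO, against 5.70, 5.28 and 5.97 in *Nfat5*fl/fl. *Dpp4* read 7.66, 7.64 and 7.51 in *Nfat5*IEC-KO, against 7.39, 7.52 and 7.59 in *Nfat5*fl/fl.

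The order of the 4 groups was thus S-IEC *Nfat5*IEC-KO, S-IEC *Nfat5*fl/fl and then both L-IEC groups for every member. The step between the S-IEC *Nfat5*fl/fl and L-IEC groups was beyond the spread for all 10. The neighbours within a tissue passed the adjusted test for none, and within S-IECs *Enpep* overlapped.

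Whether the genotype difference itself differs between ileum and colon was tested as an interaction on all 12 arrays. No member passed an adjusted p of 0.05 (0 of 10, against 0% of all clusters). At an unadjusted p under 0.05, 4 members were higher (4.53% of all clusters) and 1 was lower (6.3%). *Treh* differed most, by 1.28 ± 0.22 (SE, limma adjusted p = 0.155), its arrays lying higher in the ileum and lower in the colon of *Nfat5*IEC-KO mice. *Enpp3* followed with 1.23 ± 0.27 (SE, adjusted p = 0.228), *Alpi* with 0.78 ± 0.19 (SE, adjusted p = 0.237) and *Mme* with 0.66 ± 0.29 (SE, adjusted p = 0.430). The *Lct* value was 0.98, with a 95% interval of −0.01 to 1.96. *Enpep* ran the other way, at −0.55 ± 0.19 (SE, adjusted p = 0.319). Those of *Sis*, *Mgam*, *Anpep* and *Dpp4* lay between −0.022 and 0.20. With the trend and robust options 3 members were called (*Treh*, *Enpp3* and *Alpi*, against 0.11% of all clusters called higher), and without S-IEC *Nfat5*IEC-KO array 2 *Treh* alone was (0.126%). Relative to the absorptive enterocyte markers described further on, *Treh* and *Enpp3* were called higher (0.0434%) and *Enpep* lower (5.68%).

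The hydrolases act with other apical enzymes and with transporters. Of 16 other apical digestive enzymes measured in S-IECs, 14 had higher means in *Nfat5*IEC-KO, 6 were higher and 1 lower at an unadjusted p under 0.05, 0 passed the adjusted test, and the median difference was 0.18. Over all clusters 52.9% had higher means, and 5.81% were higher and 8.23% lower at that p. *Asah2*, the neutral ceramidase, averaged 11.00 in *Nfat5*IEC-KO and 10.12 in *Nfat5*fl/fl (difference 0.88, adjusted p = 0.161). *Ace*, the angiotensin-converting peptidase, averaged 10.85 in *Nfat5*IEC-KO and 10.15 in *Nfat5*fl/fl (difference 0.70, adjusted p = 0.157). *Nt5e*, which forms adenosine from AMP, differed by 0.66, *Enpp7*, the alkaline sphingomyelinase, by 0.65 and *Plb1*, a phospholipase, by 0.64, while *Tmprss2*, a serine protease, differed by −0.45. The metalloproteases *Mep1a* (0.06) and *Mep1b* (0.16), the meprin subunits, and *Naaladl1* (0.08), a peptidase, differed little.

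The products of digestion are carried across the cell's membranes by transporters, of which 16 were measured. In S-IECs 13 had higher means in *Nfat5*IEC-KO, 5 at an unadjusted p under 0.05 (52.9% and 5.81% of all clusters), 0 at an adjusted one, with a median difference of 0.23. The fructose transporter *Slc2a5* read 8.30, 8.12 and 7.97 in *Nfat5*IEC-KO, against 7.20, 7.42 and 7.26 in *Nfat5*fl/fl (difference 0.84, adjusted p = 0.112). *Slc2a2*, a sugar transporter, differed by 0.71, the peptide transporter *Slc15a1* by 0.43, and *Slc7a9*, which takes up basic amino acids and cystine, by 0.30. The sodium glucose transporter *Slc5a1*, which takes up glucose released by lactase and sucrase, differed by 0.11 (limma adjusted p = 0.760). Of 23 structural genes of the brush border, 6 were higher (5.81% of all clusters) and 0 lower (8.23%) at an unadjusted p under 0.05, with a median of 0.18. *Vil1*, the actin bundler villin, differed by 0.18 (adjusted p = 0.487).

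Transcription factors of the enterocyte were on the array as well. In S-IECs *Cdx2* averaged 8.90 in *Nfat5*IEC-KO and 8.95 in *Nfat5*fl/fl, and *Hnf4a* averaged 10.49 in *Nfat5*IEC-KO and 10.60 in *Nfat5*fl/fl. *Gata4*, a factor of the upper small intestine, read 6.80, 6.93 and 6.64 in *Nfat5*IEC-KO, against 6.77, 6.15 and 6.23 in *Nfat5*fl/fl (difference 0.41, adjusted p = 0.336). Its *Nfat5*fl/fl array 1 was again the one nearest *Nfat5*IEC-KO, as for *Lct* and *Treh*. *Klf4*, a factor of mature enterocytes, read 9.45, 9.30 and 9.49 in *Nfat5*IEC-KO, against 8.87, 8.90 and 8.92 in *Nfat5*fl/fl (difference 0.52, adjusted p = 0.132). Of the 17 factors measured, 7 had higher means (52.9% of all clusters), with a median difference of −0.039. At an unadjusted p under 0.05, 4 were higher (5.81%) and 2 lower (8.23%). Groups did not overlap for 3 that were higher (9.8% of all clusters) and 2 that were lower (10.4%), *Klf5* and *Isx*. *Klf5* read 10.11, 10.31 and 10.22 in *Nfat5*IEC-KO, against 10.43, 10.45 and 10.53 in *Nfat5*fl/fl. *Isx* read 8.53, 8.98 and 9.16 in *Nfat5*IEC-KO, against 9.26, 9.20 and 9.38 in *Nfat5*fl/fl.

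Markers of the cells in the preparation also differed with genotype in the ileum, counted here at an unadjusted p under 0.05, at which 5.81% of all clusters were higher and 8.23% lower. Of 21 absorptive enterocyte markers, 11 were higher and 0 lower in *Nfat5*IEC-KO, with a median difference of 0.30, beside the 0.32 of the hydrolases. Their summed level (log2 of the summed linear values) was 15.26 to 15.32 in *Nfat5*IEC-KO, against 15.03 to 15.21 in *Nfat5*fl/fl. Among these markers, *Slc5a1*, *Slc2a2*, *Slc2a5*, *Slc15a1* and *Slc6a19* were also counted with the transporters above, and *Vil1* with the structural genes. Of 16 stem cell markers 11 were lower and 0 higher (median −0.57), with summed levels of 11.33 to 12.01 in *Nfat5*IEC-KO and 12.01 to 12.29 in *Nfat5*fl/fl. Of 13 proliferation markers 11 were lower and 0 higher (median −0.62), with summed levels of 10.11 to 10.73 in *Nfat5*IEC-KO and 10.84 to 11.16 in *Nfat5*fl/fl. Paneth cell markers were lower for 12 of 14 (median −0.91), with summed levels of 14.32 to 14.95 in *Nfat5*IEC-KO and 15.07 to 15.28 in *Nfat5*fl/fl, and goblet cell markers for 6 of 12 (median −0.42). None of these genes passed the adjusted test. Of 12 colonocyte markers 2 were higher and 4 lower (median −0.16), with summed levels of 11.70 to 12.01 in *Nfat5*IEC-KO and 11.66 to 12.18 in *Nfat5*fl/fl. Their mean deviation from the *Nfat5*fl/fl mean was −0.38, −0.33 and −0.28 in *Nfat5*IEC-KO arrays, against −0.44, 0.25 and 0.19 in *Nfat5*fl/fl. Of 14 T cell and intraepithelial lymphocyte markers 0 were higher and 1 lower (median 0.11), with summed levels of 9.12 to 9.58 in *Nfat5*IEC-KO and 8.91 to 9.39 in *Nfat5*fl/fl. *Fabp1*, a lipid carrier, read 7.10, 7.62 and 6.32 in *Nfat5*IEC-KO, against 5.94, 5.29 and 5.64 in *Nfat5*fl/fl, while *Fabp6* read 12.32, 12.01 and 12.51 in *Nfat5*IEC-KO, against 12.53, 12.52 and 12.53 in *Nfat5*fl/fl. The part of these markers in the difference of the hydrolases was not tested.

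The same lists were also read array by array in S-IECs. The mean deviation of the 10 hydrolases from the *Nfat5*fl/fl mean was 0.50, 0.63 and 0.50 in S-IEC *Nfat5*IEC-KO, against 0.17, −0.10 and −0.08 in *Nfat5*fl/fl. *Nfat5*IEC-KO array 2, the highest in the mean of the hydrolases, had the smallest shift of the stem cell markers (−0.70, −0.20 and −0.59 in the 3 *Nfat5*IEC-KO arrays) and of the Paneth cell markers (−1.12, −0.33 and −1.24). Of these arrays it was the highest for *Lct*, *Sis*, *Mgam*, *Treh*, *Mme* and *Enpp3*. It was between the others for *Enpep* and the lowest for *Alpi*, *Dpp4* and *Anpep*. Among the *Nfat5*fl/fl arrays, array 1 was the highest in hydrolases and the lowest in stem cell (−0.19, 0.079 and 0.11), proliferation (−0.19, 0.031 and 0.16) and Paneth cell markers (−0.14, 0.15 and −0.0054). The absorptive enterocyte markers deviated by 0.44, 0.38 and 0.29 in *Nfat5*IEC-KO arrays, against 0.12, −0.014 and −0.11 in *Nfat5*fl/fl. Set against the mean of those markers in each array, a scale chosen after seeing the data, *Enpp3* differed by 1.22 (limma adjusted p = 0.00189), *Lct* by 0.73 (adjusted p = 0.0207) and *Mme* by 0.52 (adjusted p = 0.0241). All 3 differences were smaller than on the deposited scale, and the unadjusted p was higher for *Lct* (0.00311 in place of 0.00198, limma) and *Mme* (0.00409 in place of 3.34e-05). On that scale 28 clusters, 0.11% of all, were called higher and 31.7% lower, while *Treh* differed by 0.21 (adjusted p = 0.276) and the other 6 members lay between −0.30 and −0.013. The marker mean is itself 0.37 higher in *Nfat5*IEC-KO, which lowers every difference on this scale by that amount, and adjusted p-values fell where so many clusters were called, so passing here is no stronger result.

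**Figure D5:**
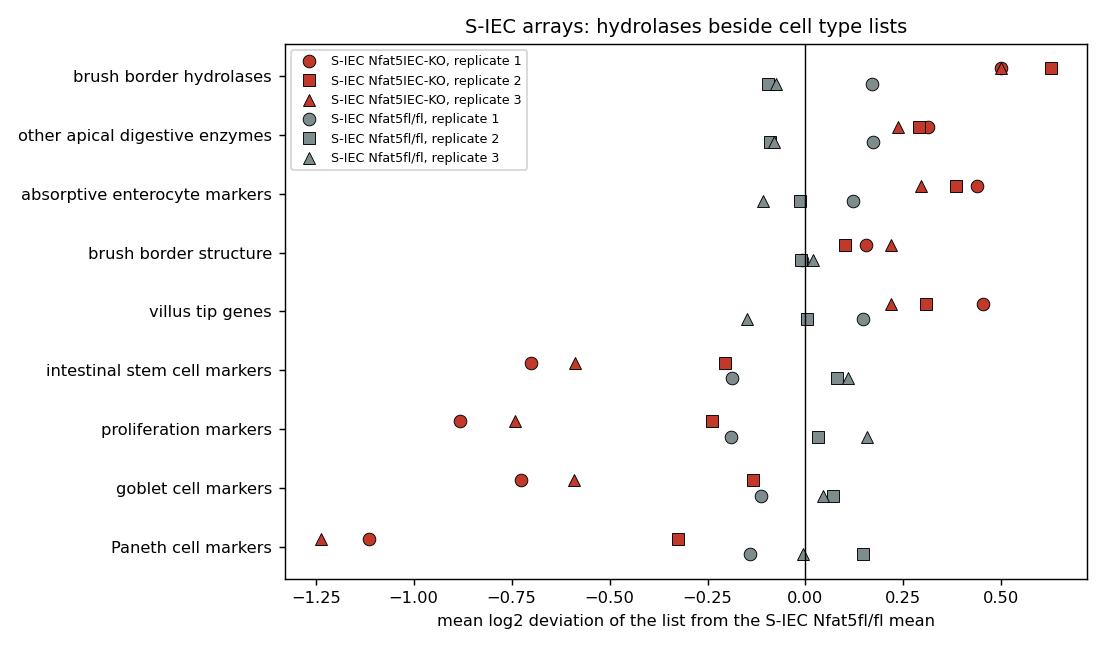
Mean log2 deviation of 9 gene lists from their S-IEC *Nfat5*fl/fl mean (x axis) in each S-IEC array. Colour gives the genotype and the symbol the replicate number, and some lists share genes. The hydrolases reach 0.50 to 0.63 in *Nfat5*IEC-KO, and the square of *Nfat5*IEC-KO replicate 2 lies highest for them and, of the *Nfat5*IEC-KO arrays, closest to *Nfat5*fl/fl for the 4 crypt and secretory lists.

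Across the 12 arrays the members followed one another, with a median Pearson r of 0.990 over the 45 pairs (0.951 to 0.998), a description in which the points share the step between tissues. The clusters most like each member over these arrays included *Slc7a9* for *Sis*, *Vnn1* for *Alpi*, *Naaladl1* for *Enpep*, *Bcl2l15* for *Anpep* and *Aspa* for *Dpp4* (r of 0.999 for each). *Dgat1*, an enzyme of triglyceride synthesis, was most like *Mgam* (0.998), *Gpat3* most like *Treh* (0.997), *Cyp4v3* most like *Mme* (0.997), *Zzef1* most like *Lct* (0.995) and *Ephx2* most like *Enpp3* (0.994). With the mean of each tissue subtracted, the median r over the pairs was 0.381 (−0.566 to 0.894), and some pairs ran opposite ways. On that scale *Enpp3* was most like *Slc23a1*, a vitamin C transporter (0.964), *Mme* most like *Galm*, a sugar mutarotase (0.964), *Mgam* most like *Nfkbib* (0.968), and *Lct* most like *Slc35c2* (0.91) and *Asah2* (0.879).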

How the data were processed

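Epithelial RNA of 12 mouse samples was hybridized to Affymetrix arrays, and the deposited values are log2 summaries per transcript cluster, made by the authors in Transcriptome Analysis Console against mm10 (version and normalization: not given in the sources used here). Groups came from the sample labels, and value columns without a sample numbered 0. All 25341 clusters with a gene symbol (23521 with 1, 1820 with several) entered two-sided fits with limma 3.58.1 under R 4.3.3 (linear model, then eBayes), per tissue or per genotype, with Benjamini-Hochberg adjustment over all of them, and no cluster was left out for low values. The interaction used all 12 arrays. Sample titles tie ileum and colon to 1 mouse number within a genotype, while ileum and colon arrays so tied did not deviate together (r of −0.038 to 0.053). Fits with that number as a block are an alternative. The fits were tested on simulated data with independent noise in each array, a check of the code that does not give the power in these data. The number of arrays, 3 per group, limits the precision. All members are named, with, from each list, genes of smallest p in S-IECs and others chosen after their values were seen. The members and lists were chosen with earlier results of these data known. Coordinates and promoters are RefSeq's, GRCm38.p6. Proteins were not compared.

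Alternatives were a block on replicate number, 1 fit over all arrays, the trend and robust options of eBayes, weights per array, quantile normalization, median centring, leaving out dim clusters, testing every cluster or those with 1 symbol, the methods' t-test, each array left out and, added after seeing the data, each array set against absorptive enterocyte markers or brush border structure genes.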

Additional observations from a re-analysis of the deposited data

Results flagged for a closer look

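*Treh* and *Alpi* differed by genotype in opposite directions in the tissues, each without overlap of the genotypes. Of all clusters, 9.8% were so apart with *Nfat5*IEC-KO higher in S-IECs, and 6.24% with it lower in L-IECs. The share of clusters with both was not counted. The genotype difference in S-IECs minus that in L-IECs was 1.28 for *Treh* (0.59 in S-IECs and −0.70 in L-IECs, limma interaction adjusted p = 0.155) and 0.78 for *Alpi* (0.36 in S-IECs and −0.43 in L-IECs, adjusted p = 0.237). Neither passed the adjusted threshold. The colonic *Treh* values lie near the array medians.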

How the results depend on the processing

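The tissue difference was called for all 10 members in both genotypes under the 16 alternatives run for it, which leave out the marker scales. In S-IECs the count of members called by genotype was 0, and it was 2 with all 12 arrays in one fit, 4 with eBayes trend and robust, 2 with the filter on dim clusters, 3 relative to absorptive enterocyte markers and 0 to 2 with 1 array left out. Clusters called higher numbered 2 of all in the first fit, and 127, 166, 56 and 28 in those alternatives. The 2 came without *Nfat5*IEC-KO replicate 2 (*Mme*, adjusted p = 0.0402, and *Enpp3*, 0.0351). Over the 18 alternatives the adjusted p ran from 0.00189 to 0.384 for *Enpp3*, 0.00272 to 0.384 for *Mme*, 0.0207 to 0.384 for *Lct*, 0.0474 to 0.401 for *Treh* and 0.0474 to 0.94 for *Alpi*. The lowest values of *Enpp3* and *Lct* came relative to absorptive enterocyte markers. The count at an unadjusted p and 1.5-fold was 2 in place of 4 relative to absorptive enterocyte markers. That scale takes 0.37 from every S-IEC difference, and those smaller than this, 6 of them, turned negative: *Sis* −0.12, *Mgam* −0.18, *Alpi* −0.013, *Anpep* −0.30, *Dpp4* −0.092 and *Enpep* −0.29. The scale of brush border structure genes takes 0.16, and *Anpep* (−0.081) and *Enpep* (−0.073) turned. *Lct*, *Mme* and *Enpp3* were too dim in the colon to pass the filter there. In L-IECs the 1.5-fold counts, 1 higher and 1 lower, ran from 0 to 1 with 1 array left out: *Enpep* was lost without *Nfat5*fl/fl replicate 1 and *Treh* without *Nfat5*IEC-KO replicate 1. Leaving out an array also turned *Mme* (−0.043 to 0.41), *Lct* (−0.17 to 0.46) and *Anpep* (−0.31 to 0.037). For the interaction the count was 3 with eBayes trend and robust (*Treh*, *Alpi* and *Enpp3*), 3 relative to absorptive enterocyte markers (*Treh*, *Enpp3* and *Enpep*) and 0 to 1 with 1 array left out (*Treh*, without S-IEC *Nfat5*IEC-KO replicate 2). Its sign turned for *Sis* with quantile normalization (0.050) and with arrays left out (−0.15 to 0.16, over all arrays), for *Mgam* (−0.26 and −0.060), *Anpep* (−0.14) and *Dpp4* (−0.16) on the marker scales. Beyond the shift built into the marker scales and the fewer clusters or arrays of a filter or a left-out array, the cause was not tested.

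Between genotypes a number is only a number. With it as a replicate block, 0 members were called by genotype in either tissue, and with the mouse as a block 10 between tissues and 0 for the interaction, so no call at an adjusted p changed. At an unadjusted p under 0.05, the block gave 6 higher in place of 7 in S-IECs (*Sis* lost), 2 in place of 1 in L-IECs (*Enpp3* gained) and 5 in place of 4 for the interaction (*Lct* gained).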
